A study of Homo sapiens and Mus musculus with 8 samples.

Results

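The integrated stress response was described through 10 genes: ATF4, DDIT3, ATF3, TRIB3, CHAC1, SESN2, ASNS, PSAT1, PHGDH and MTHFD2. They were chosen by name as known genes of the response, with earlier results of these data known. In human K562 cells all 10 were matched by symbol among 35141 genes. In mouse BaF3-T315I cells the genes were found by the Ensembl identifiers listed for them, since the mouse table pairs no identifier with a symbol, and 9 of 10 were matched among 22457 genes. Mouse Chac1 (ENSMUSG00000027313) was not analysed here. The cells were cultured with 2 μM of JOA (Jiyuan oridonin A, an ent-kaurene diterpenoid) or without it (control), for 48 h in both groups, and the labels name no vehicle. BaF3-T315I is a mouse hematopoietic line whose growth is driven by human BCR-ABL carrying the T315I mutation from a retroviral vector, and K562 is a human chronic myeloid leukemia line with its own BCR-ABL. Each line had 2 JOA and 2 control libraries of polyadenylated RNA, 8 in all. Nothing in the labels says whether the libraries of a group came from separate cultures, so p-values measure the spread between these libraries, which may be technical.

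Cells start this response when a kinase phosphorylates the translation initiation factor eIF2. The kinases are PERK (stress in the endoplasmic reticulum), GCN2 (lack of amino acids), PKR (double-stranded RNA) and HRI (lack of heme, mitochondrial stress). Bulk protein synthesis then slows, while the mRNA of the transcription factor ATF4 is translated more, so that the level of ATF4 mRNA alone does not tell the amount of its protein. ATF4 switches on genes of amino acid uptake and synthesis, and together with DDIT3, also called CHOP, genes that can lead to cell death. In leukemia cells the response is known as an answer to many drugs and to nutrient shortage.

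ATF4 binds DNA as a dimer with C/EBP proteins at composite sites called C/EBP-ATF response elements. RefSeq windows from 250 bases before to 50 bases after a transcription start (GRCh38.p14) were matched for all 10 human genes and searched on both strands for TGATGNAA, and for TTGCATCA, a stricter form of the same element on the opposite strand that overlaps it. CHAC1, ASNS and ATF3 held the looser form, 3 of 10 genes, and 4.46% of the 27305 genes with a window did. CHAC1 alone held the stricter form, which 1.08% of those genes did. TGACGTCA, the cAMP response element, was in none of the 10, against 2.25% of all genes, and CCAAT was in 7 of 10, against 39.7%. The windows around the 3 matches are shown on the strand of each gene, to show how the element varies between these genes, and capitals mark the match.
CHAC1 (chr15:40953251-40953280, plus strand, match from base -209 relative to the start site): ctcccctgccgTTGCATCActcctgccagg
ASNS (chr7:97872458-97872487, minus strand, match from base -68): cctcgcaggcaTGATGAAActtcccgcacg
ATF3 (chr1:212565205-212565234, plus strand, match from base -191): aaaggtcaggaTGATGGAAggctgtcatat
A match is a string of letters and not a shown binding site, and the elements of a gene may lie outside this window.

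The deposited values are FPKM, fragments scaled by exon length and by the mapped fragments of the library, a unit that corrects for the length of a gene. They were compared as log2(FPKM + 0.5) within each cell line, where the mean reached 0.5 FPKM, which kept 12872 mouse and 15635 human genes. Calls required an adjusted p below 0.05 in limma (Benjamini-Hochberg over all genes tested) and a log2 fold change of 0.58 or more in either direction. The K562 libraries held 22625591 to 23292635 reads, as recovered from FPKM and exon length, and the absolute depth of the BaF3-T315I libraries is unknown. Of 7 erythroid markers that K562 cells are known for, GATA1 (197 and 172 FPKM with JOA, 239 and 215 FPKM in controls) and the fetal globin gene HBG2 (492 and 326 FPKM with JOA, 918 and 835 FPKM in controls) were abundant. The markers of B cells, T cells and monocytes MS4A1, PAX5, CD79A, CD3E, CD14 and CSF1R were at most 0.289 FPKM in every library. Such markers were not read in BaF3-T315I cells, whose table has no symbols. In bulk RNA, fewer cells that express a gene and less RNA per cell cannot be told apart.

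In BaF3-T315I cells cultured with JOA, all 8 genes that passed the minimum fell, by log2 fold changes of -1.13 to -2.78. limma called 8 of 8 lower, and 15.2% of all 12872 genes tested, and 0 of 8 higher, against 9.38% of all genes. A log2 fold change of -1 or lower was reached by the same 8, and by 6.66% of all genes. Both JOA libraries lay below both controls for 8 of 8, and for 44.5% of all genes. The median log2 fold change was -1.98 over the 8 genes and -0.11 over all genes. Atf3 did not pass the minimum, and its level was listed at 0 in both JOA libraries and in control replicate 2, and at 0.0504 FPKM in control replicate 1.

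**Figure D1:**
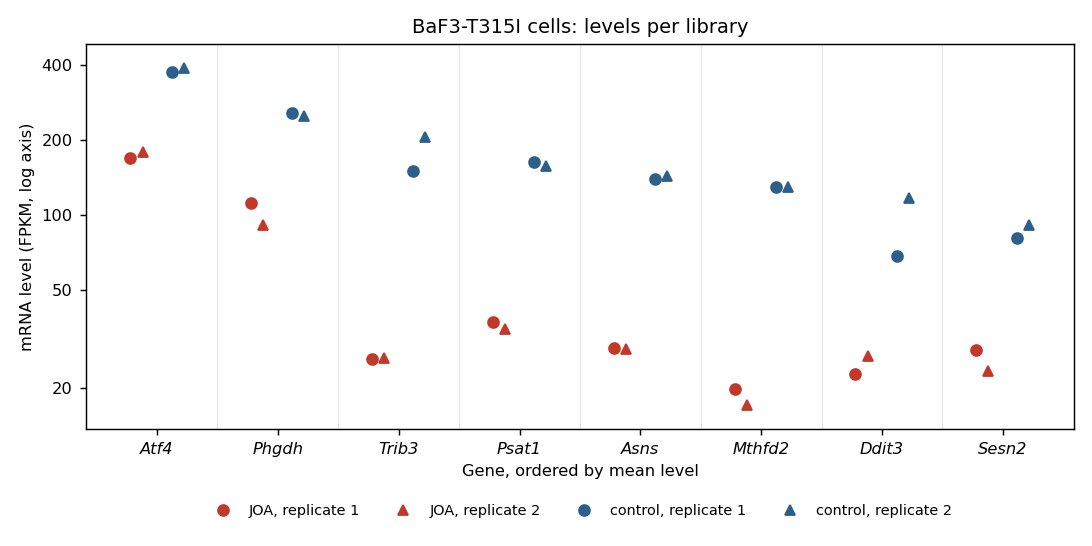
FPKM of 8 genes in each BaF3-T315I library, on a log axis, with JOA (red) left of control (blue) and the marker giving the replicate. For every gene both JOA points lie below both control points, from Atf4 at 169 and 180 against 374 and 390 FPKM to Mthfd2 at 19.97 and 17.1 against 129 and 129 FPKM.

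Of the transcription factors, Atf4 (ENSMUSG00000042406), the effector of the response, had 169 and 180 FPKM with JOA and 374 and 390 FPKM in the controls. The groups did not overlap, and the log2 fold change was -1.13 (standard error, SE, 0.10 in limma, with adjusted p = 0.00688). This was the smallest change of the 8, and 5.02% of all genes had a lower log2 fold change. Ddit3 (ENSMUSG00000025408), which encodes CHOP, had 22.8 and 27.0 FPKM with JOA, against 68.0 and 117 FPKM in the controls. Its controls differed from each other by 0.78 on the log2 scale, more than those of any other of the 8 genes, and still both stood above both JOA libraries. The log2 fold change was -1.82 (SE 0.27 in limma, with adjusted p = 0.0115).

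Among the regulators that answer to ATF4, Trib3 (ENSMUSG00000032715) encodes a pseudokinase that restrains ATF4 and CHOP. It had 26.4 and 26.4 FPKM with JOA and 150 and 205 FPKM in the controls, so that the JOA libraries were nearly equal while the controls differed by 0.45 on the log2 scale. With a log2 fold change of -2.71 (SE 0.17 in limma, with adjusted p = 0.00665), its mean fell by a factor of 6.72. Of 12872 genes ranked, Trib3 stood at place 13 from the lowest log2 fold change. Sesn2 (ENSMUSG00000028893) encodes sestrin 2, which lowers mTORC1 activity when leucine is short. Its level was 28.7 and 23.5 FPKM with JOA, against 80.3 and 91.4 FPKM in the controls, a log2 fold change of -1.70 (SE 0.14 in limma, with adjusted p = 0.00675).

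The enzymes of amino acid and folate metabolism fell as well, and their control libraries lay close together. Mthfd2 (ENSMUSG00000005667), a mitochondrial enzyme of folate metabolism, had 19.97 and 17.1 FPKM with JOA and 129 and 129 FPKM in the controls. Its log2 fold change of -2.78 (SE 0.11 in limma, with adjusted p = 0.00648) was place 10 from the lowest of all genes tested, and its mean was lower by a factor of 6.98. Asns (ENSMUSG00000029752), asparagine synthetase, had 29.1 and 28.9 FPKM with JOA, against 140 and 143 FPKM in the controls. Its log2 fold change was -2.27 (SE 0.087 in limma, with adjusted p = 0.00648), at place 30. Psat1 (ENSMUSG00000024640), the aminotransferase of serine synthesis, had 37.1 and 34.6 FPKM with JOA and 163 and 157 FPKM in the controls, a log2 fold change of -2.14 (SE 0.095 in limma, with adjusted p = 0.00648). Phgdh (ENSMUSG00000053398), the dehydrogenase that opens serine synthesis, had 112 and 91.0 FPKM with JOA and 256 and 249 FPKM in the controls. Its log2 fold change of -1.32 (SE 0.13 in limma, with adjusted p = 0.00736) was the smallest among the enzymes.

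The order of the levels differed between the groups. With JOA, Atf4 was highest and Phgdh next, followed by Psat1, Asns, Trib3, Sesn2, Ddit3 and Mthfd2 by mean FPKM, and of these neighbours Trib3 and Sesn2, and Sesn2 and Ddit3, overlapped in their libraries. In the controls, Trib3 came after Atf4 and Phgdh, and then Psat1, Asns, Mthfd2, Ddit3 and Sesn2. Here Trib3 and Psat1 overlapped, and Ddit3 and Sesn2 did. Mthfd2, at 129 FPKM in both controls, was thus above Ddit3 and Sesn2 without JOA and below both with JOA. Ordered by log2 fold change, from Mthfd2 through Trib3, Asns, Psat1, Ddit3, Sesn2 and Phgdh to Atf4, the 95% interval of each gene overlapped that of the next. The interval of Mthfd2 (-3.06 to -2.49) did not overlap those of Psat1 (-2.39 to -1.90), Sesn2 (-2.06 to -1.34), Phgdh (-1.66 to -0.98) and Atf4 (-1.40 to -0.86). Differences between genes were not tested.

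The calls changed with the control libraries. Leaving out a control library removed some or all of the calls, but such a fit has 1 library in that group and cannot decide a call. The log2 fold changes without 1 library stayed between -2.93 and -1.09.

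In K562 cells cultured with JOA none of the 10 genes was called. limma called 0 of 10 higher and 0 of 10 lower, as it did for 0% of all 15635 genes in each direction, and voom weights on the recovered reads called 0 of 10. At an unadjusted p under 0.05, limma found 0 of 10 higher, against 11.4% of all genes, and 0 of 10 lower, against 5.82%. With voom weights it found 1 higher at that threshold, DDIT3, against 14.8% of all genes. The log2 fold changes ran from -0.033 to 1.39, with a median of 0.42, where the median of all genes was 0.096. The 95% intervals in the plot of log2 fold changes were each wider than any in BaF3-T315I cells, and each included 0.

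**Figure D2:**
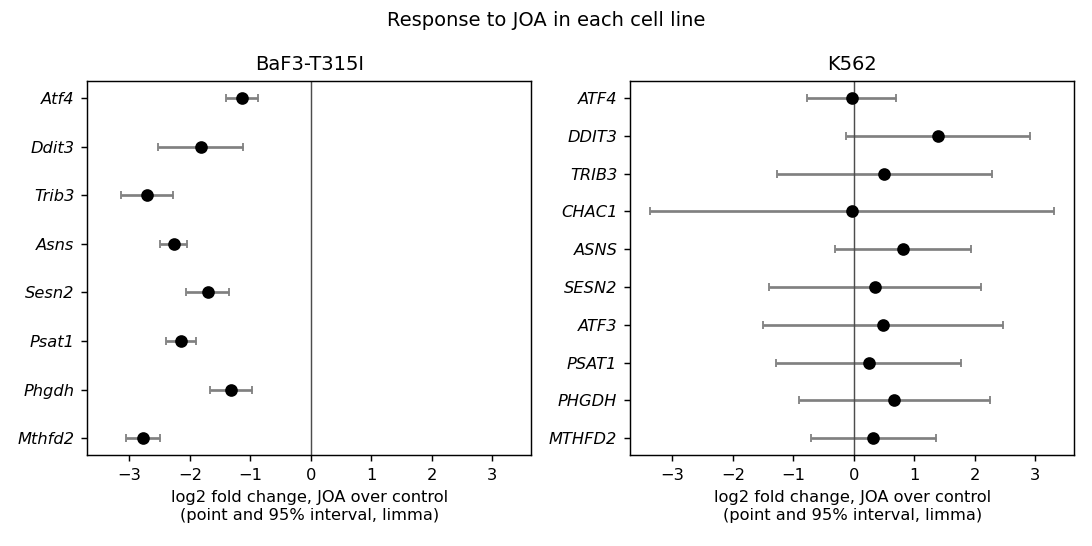
Log2 fold change of JOA over control with its 95% interval (limma) for 8 genes in BaF3-T315I cells (left) and 10 genes in K562 cells (right), on the same axis. In BaF3-T315I cells every interval lies below 0, and in K562 cells every interval includes 0, from CHAC1 (-3.36 to 3.31) to ATF4 (-0.77 to 0.70).

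Libraries of the same group stood far apart, and in the same order for all 10 genes. JOA replicate 2 was the highest of the 4 libraries for 10 of 10 genes, and for 42.3% of all genes tested. Replicate 2 was above replicate 1 in both groups for 10 of 10 genes, and for 33.7% of all genes. Between the JOA libraries, replicate 2 exceeded replicate 1 by a median of 1.68 on the log2 scale (0.65 to 3.43 over the 10 genes), where the median of all genes was 0.027. Between the controls it exceeded replicate 1 by a median of 0.84 (0.34 to 2.02), where that of all genes was 0.001. Against the control mean, JOA replicate 2 was higher for 10 of 10 genes (median 1.38), and JOA replicate 1 was higher for 2 of 10, DDIT3 and ASNS (median -0.41). What made the libraries differ was not tested, and the labels give no culture, day or batch for them.

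**Figure D3:**
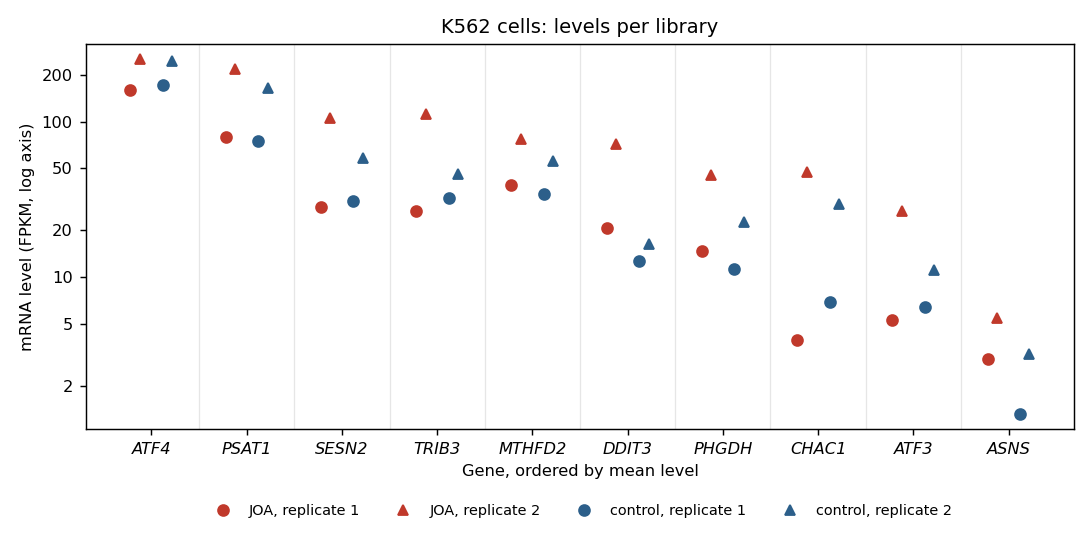
FPKM of the 10 genes in each K562 library, on a log axis, with JOA (red) left of control (blue), circles for replicate 1 and triangles for replicate 2. The triangles of both groups lie above the circles of both groups for 9 of the 10 genes. The exception is DDIT3, where JOA replicate 1 (20.7 FPKM) lies above control replicate 2 (16.3 FPKM).

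Of the transcription factors, DDIT3 (ENSG00000175197, chromosome 12 of GRCh38 from 57516588 to 57521737) had 20.7 and 72.0 FPKM with JOA and 12.8 and 16.3 FPKM in the controls. It was the 1 gene of the 10 with both JOA libraries above both controls, which held for 36.8% of all genes, and 0 of 10 had both below, against 18.3%. Its log2 fold change was 1.39 (95% interval -0.14 to 2.92, adjusted p = 0.310 from limma), and 0.524% of all genes had a higher one. Leaving out JOA replicate 2 gave 0.51, and leaving out JOA replicate 1 gave 2.28. ATF4 (ENSG00000128272, chromosome 22 from 39519695 to 39522685), the most abundant of the 10, had 160 and 252 FPKM with JOA, against 172 and 246 FPKM in the controls. The groups overlapped fully, with a log2 fold change of -0.033 (95% interval -0.77 to 0.70, adjusted p = 0.958 from limma). ATF3 (ENSG00000162772, chromosome 1 from 212565334 to 212620777), a stress-induced factor of the same family, had 5.32 and 26.7 FPKM with JOA and 6.41 and 11.2 FPKM in the controls. Its lowest and its highest library were both JOA libraries.

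CHAC1 (ENSG00000128965, chromosome 15 from 40952962 to 40956519) encodes an enzyme that breaks down glutathione. It had 3.97 and 47.7 FPKM with JOA and 6.93 and 29.6 FPKM in the controls, and varied the most of the 10, with 189 and 2223 reads behind the JOA values and 332 and 1402 behind the control values. Its log2 fold change of -0.026 (95% interval -3.36 to 3.31, adjusted p = 0.993 from limma) had the widest interval of the 10. TRIB3 (ENSG00000101255, chromosome 20 from 362835 to 397559) had 26.6 and 112 FPKM with JOA, against 32.2 and 45.8 FPKM in the controls, a log2 fold change of 0.50 (95% interval -1.28 to 2.28, adjusted p = 0.697 from limma). SESN2 (ENSG00000130766, chromosome 1 from 28259527 to 28282491) had 28.3 and 105 FPKM with JOA and 31.0 and 58.8 FPKM in the controls, a log2 fold change of 0.35 (95% interval -1.41 to 2.11, adjusted p = 0.787 from limma). For all 3 genes JOA replicate 1 was the lowest library.

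Of the enzymes, ASNS (ENSG00000070669, chromosome 7 from 97852118 to 97872542) was the least abundant of the 10, with 2.99 and 5.49 FPKM with JOA and 1.32 and 3.22 FPKM in the controls. It rested on 137 to 553 reads per library, and its log2 fold change was 0.81 (95% interval -0.32 to 1.94, adjusted p = 0.373 from limma). PHGDH (ENSG00000092621, chromosome 1 from 119648411 to 119744226) had 14.8 and 45.2 FPKM with JOA, against 11.3 and 22.8 FPKM in the controls, a log2 fold change of 0.67 (95% interval -0.90 to 2.24, adjusted p = 0.556 from limma). PSAT1 (ENSG00000135069, chromosome 9 from 78297143 to 78330093) had 80.0 and 217 FPKM with JOA and 75.5 and 163 FPKM in the controls, a log2 fold change of 0.25 (95% interval -1.29 to 1.78, adjusted p = 0.833 from limma). MTHFD2 (ENSG00000065911, chromosome 2 from 74198562 to 74217565) had 38.9 and 76.9 FPKM with JOA and 34.2 and 56.0 FPKM in the controls, a log2 fold change of 0.32 (95% interval -0.71 to 1.35, adjusted p = 0.670 from limma). For these 4 enzymes control replicate 1 was the lowest and JOA replicate 2 the highest library. Relative to the same-numbered control, both JOA libraries were higher for the 4 enzymes and DDIT3, by 0.08 to 0.94 on the log2 scale for number 1 and by 0.41 to 2.11 for number 2, while ATF4, TRIB3, CHAC1, SESN2 and ATF3 were lower in number 1 and higher in number 2. The labels do not say that libraries of the same number belong together.

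Leaving out a JOA library turned the sign of several of these values. Without JOA replicate 2 the log2 fold change was negative for 8 of 10 genes, among them TRIB3 (-0.52), SESN2 (-0.59), ATF3 (-0.63) and PSAT1 (-0.47), while DDIT3 (0.51) and ASNS (0.42) stayed positive. Without JOA replicate 1 all 10 were positive, with TRIB3 at 1.53, SESN2 at 1.29, ATF3 at 1.59 and PSAT1 at 0.96, and 5 of 10 were higher at an unadjusted p under 0.05, against 16.8% of all genes, none of them at an adjusted p under 0.05 (smallest adjusted p 0.143 from limma). By mean FPKM over the 4 libraries the order was ATF4, PSAT1, SESN2, TRIB3, MTHFD2, DDIT3, PHGDH, CHAC1, ATF3 and ASNS, and each neighbour in this order overlapped the next in the range of its libraries.

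Reads of some of these genes could be shared with other annotated features. DDIT3 spans MIR616 on the same strand, listed at 15.2 and 40.5 FPKM with JOA and 9.74 and 16.1 FPKM in the controls. It also overlaps the protein-coding gene AC022506.1 on the same strand, which has no value listed. On the other strand it overlaps the ends of MARS1 and MBD6, and the counting is not stated to use strand. The pseudogene ASNSP1 had 2.69 and 10.5 FPKM with JOA and 1.77 and 3.47 FPKM in the controls, a level like that of ASNS itself, so both are uncertain. ATF4P3 was at most 0.86 FPKM.

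The order of the K562 libraries was also seen in other genes of the pathway. Of 65 further genes on 6 lists, all were matched and 60 passed the minimum. limma called 0 higher and 0 lower, as it did for 0% of all genes in each direction, and voom weights called 0. At an unadjusted p under 0.05 limma found 5 higher and 1 lower, against 11.4% and 5.82% of all genes. Neither count stood above the background. Replicate 2 was above replicate 1 in both groups for 49 of the 60, against 33.7% of all genes, and JOA replicate 2 was the highest library for 44 of the 60, against 42.3%. Their median log2 fold change was 0.18, and -0.19 without JOA replicate 2.

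**Figure D4:**
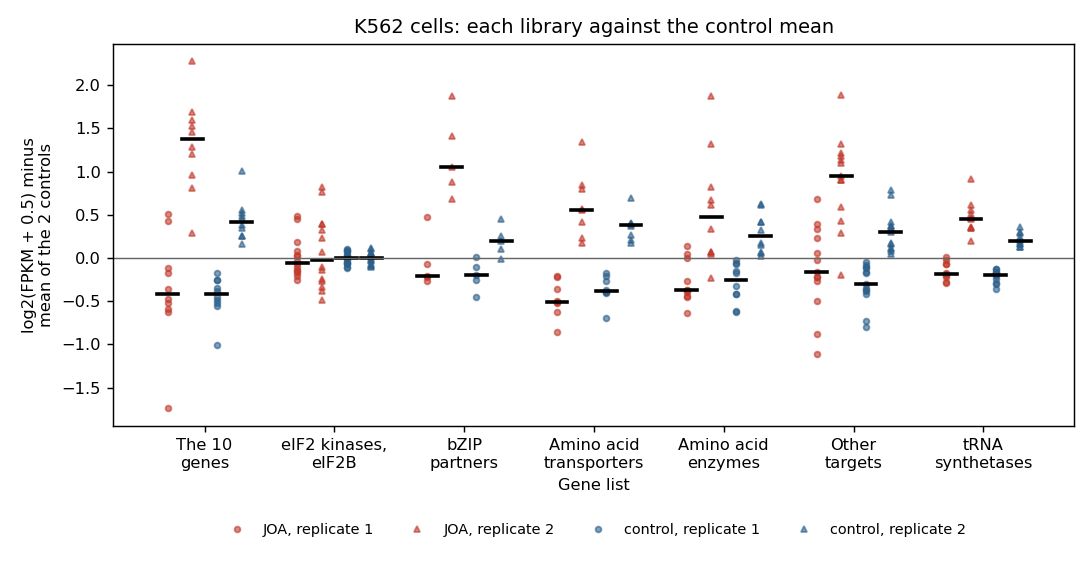
Log2 difference of each K562 library from the mean of both controls, for the 10 genes and for the tested members of 6 further lists; points are genes, black bars are medians, red is JOA, blue is control, circles are replicate 1 and triangles replicate 2. Control points mirror each other around 0 by construction. For the 10 genes the median is -0.41 in JOA replicate 1 and 1.38 in JOA replicate 2, and for the genes of eIF2 kinases and eIF2B both medians are near 0 (-0.052 and -0.020).

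Upstream of ATF4, most genes of the eIF2 kinases, the phosphatase subunits and eIF2B did not share this order. Of 14 tested, 6 were higher in replicate 2 of both groups, against 33.7% of all genes. At an unadjusted p below 0.05 limma found 2 higher and 1 lower, against 11.4% and 5.82% of all genes. These counts lay near the shares of all genes. EIF2AK3, which encodes PERK, had 3.33 and 4.16 FPKM with JOA and 2.30 and 2.18 FPKM in the controls, a log2 fold change of 0.62 (adjusted p = 0.246 from limma). EIF2AK1, which encodes HRI, was the most abundant kinase gene, with 84.8 and 94.6 FPKM with JOA and 74.7 and 86.6 FPKM in the controls. PPP1R15A, also called GADD34, brings a phosphatase to eIF2 and ends the response; its level was 54.9 and 95.01 FPKM with JOA, against 51.1 and 55.6 FPKM in the controls, with JOA replicate 1 just below control replicate 2. Of the 14 genes, 7 had both JOA libraries below both controls and 3 had both above, against 18.3% and 36.8% of all genes. The 7 include all 5 eIF2B subunit genes, which were picked out after their values were seen. Their log2 fold changes lay between -0.26 and -0.10, and none was called.

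Among the bZIP partners and other transcription factors, 5 of 7 passed the minimum and 4 of these 5 were higher in replicate 2 of both groups. ATF5, a factor related to ATF4, had 11.1 and 49.0 FPKM with JOA and 11.3 and 14.9 FPKM in the controls, and CEBPG, a dimer partner of ATF4, had 19.0 and 37.0 FPKM with JOA and 16.6 and 23.8 FPKM in the controls. NFIL3 was above both controls in both JOA libraries, as were 36.8% of all genes, at 11.1 and 22.0 against 7.95 and 7.86 FPKM. Its log2 fold change was 0.94 (adjusted p = 0.271 from limma). The 8 amino acid transporters were all higher in replicate 2 of both groups, and their median log2 fold change, 0.093, was close to that of all genes. SLC7A11, the cystine carrier, had 7.55 and 28.4 FPKM with JOA and 6.54 and 18.0 FPKM in the controls. SLC7A5, the leucine carrier, had 69.9 and 159 FPKM with JOA, against 82.0 and 143 FPKM in the controls, and control replicate 2 was above JOA replicate 1. SLC1A5, a glutamine carrier, had 82.1 and 132 FPKM with JOA and 101 and 136 FPKM in the controls, and SLC6A9, a glycine carrier, had 4.52 and 10.2 FPKM with JOA and 6.57 and 11.2 FPKM in the controls.

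Of 10 further enzymes of amino acid and folate metabolism, 9 were higher in replicate 2 of both groups (median log2 fold change 0.069). ALDH1L2, a mitochondrial folate enzyme, had 6.18 and 23.3 FPKM with JOA and 3.74 and 9.45 FPKM in the controls, and CTH, which makes cysteine, had 14.5 and 50.5 FPKM with JOA and 12.8 and 31.0 FPKM in the controls. SHMT2 had 45.2 and 68.9 FPKM with JOA and 48.3 and 61.4 FPKM in the controls, and PYCR1 had 70.5 and 95.6 FPKM with JOA and 87.1 and 95.3 FPKM in the controls. The 13 tested targets of ATF4 or CHOP had a median log2 fold change of 0.42, but against the control mean their median was -0.16 in JOA replicate 1 and 0.95 in JOA replicate 2. Among them, the death receptor gene TNFRSF10B had 18.9 and 56.6 FPKM with JOA and 13.2 and 16.9 FPKM in the controls. Its log2 fold change of 1.11 (adjusted p = 0.338 from limma) was the largest of this list, and like DDIT3 it stood above both controls in both JOA libraries. KLHL24 did so too, at 5.84 and 6.91 FPKM against 2.72 and 4.36 FPKM in the controls. This held for 4 of the 13 genes, against 36.8% of all genes, so it was no more common in this list. DDIT4, an inhibitor of mTORC1, was at 67.6 and 222 FPKM with JOA and 84.7 and 255 FPKM in the controls, and EIF4EBP1, a repressor of translation, at 79.2 and 97.3 FPKM with JOA and 106 and 118 FPKM in the controls. The 10 tRNA synthetase genes were all higher in replicate 2 of both groups, with a median log2 fold change of 0.18. Examples are AARS1, at 134 and 252 FPKM with JOA and 108 and 164 FPKM in the controls, GARS1, at 108 and 187 against 107 and 161 FPKM, and TARS1, at 74.0 and 107 against 70.5 and 84.8 FPKM.

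The genes whose K562 profile was most like that of ASNS were sought among 7803 genes averaging 5 FPKM or more. ASNS itself averaged 3.25 FPKM. The measure was the Euclidean distance of log2(FPKM + 0.5) over the 4 libraries, with each gene's control mean subtracted. Levels still enter through the added 0.5, which shrinks the differences of a low gene such as ASNS. NOXA1 (distance 0.335) and the pseudogene RIMKLBP2 (0.352) were the nearest with a symbol, and ENSG00000280374 (0.279), ENSG00000258125 (0.322) and ENSG00000256673 (0.342) the others of the nearest 5. NOXA1, which encodes an activator of an NADPH oxidase, had 11.7 and 21.0 FPKM with JOA and 5.88 and 9.95 FPKM in the controls. With 4 libraries such a likeness is only a description.

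Some marker lists had most of their genes lower in both JOA libraries of K562 cells. Of the 7 erythroid markers 6 had both JOA libraries below both controls, against 18.3% of all genes, and 0 were higher in replicate 2 of both groups, against 33.7%. KLF1, an erythroid transcription factor, had 61.9 and 51.9 FPKM with JOA and 108 and 93.0 FPKM in the controls, and HBG1 had 141 and 107 FPKM with JOA and 346 and 406 FPKM in the controls. Of 9 mitochondrially encoded mRNAs, read as a sign of RNA quality, 7 had both JOA libraries below both controls, again against 18.3% of all genes, with MT-CO3 at 5110 and 5706 FPKM with JOA and 8182 and 9988 FPKM in the controls. Their summed level was 42868 and 38635 FPKM with JOA and 51716 and 56656 FPKM in the controls. None of these was called by limma, while 5 erythroid and 6 mitochondrial genes were lower at an unadjusted p under 0.05, as were 5.82% of all genes, and their part in the levels of the 10 genes was not tested. The response of the 10 genes was not compared between the cell lines by a test, since the mouse and human tables were made and scaled separately.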

How the data were processed

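Polyadenylated RNA of K562 and BaF3-T315I cells was sequenced after stranded library preparation. The authors deposited FPKM per gene and library, 1 table per cell line. Their processing notes name Trimmomatic, HISAT2, Cufflinks and HTSeq and the builds hg38 and mm10, without versions or roles, and whether the counting used strand is not given in the sources used here. FPKM are scaled to each library's total, so a few abundant genes can shift all others.

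Each line was fitted on its own with limma 3.58.1 in R 4.3.3 (trended variance, Benjamini-Hochberg adjustment over all genes tested) on log2(FPKM + 0.5), where the mean reached 0.5 FPKM. Fold changes on this scale understate those of low genes. In K562 cells, read numbers were recovered from FPKM and GENCODE 29 exon lengths, and 96.3% of 81881 values under 1000 reads came out whole within 0.05. They were also fitted with voom weights. Other pseudocounts, minimums, scalings, a replicate block and leaving out each library were tried. The fit was also run on simulated data, with independent noise drawn from its own variances. Such data hold no shift shared by the genes of a library. They cannot show how the fit handles the replicate differences seen in K562 cells. Symbols of 34749 of 35141 human genes were matched. Python 3.11.15, pandas 2.3.3, numpy 2.4.6 and matplotlib 3.10.9 were used for tables and figures.

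The members and the lists were chosen with earlier results of these data known. Named from each pathway list were the 2 tested genes with the highest mean FPKM and the 2 with the largest absolute log2 fold change. The other genes named from lists (EIF2B subunits, GATA1, KLF1, XBP1, SDF2L1) were chosen after their values were seen. Of the listed cell type markers, 1 is not reported here.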

Additional observations from a re-analysis of the deposited data

Results flagged for a closer look

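DDIT3 stood on opposite sides of the controls in the 2 cell lines. In K562 cells both JOA libraries (20.7 and 72.0 FPKM) were above both controls (12.8 and 16.3 FPKM), as were 36.8% of all genes. The log2 fold change was 1.39 with an adjusted p of 0.310 from limma, and 0.51 without JOA replicate 2. In BaF3-T315I cells both JOA libraries (22.8 and 27.0 FPKM) were below both controls (68.0 and 117 FPKM), as were 44.5% of all genes. The log2 fold change was -1.82, with an adjusted p of 0.0115 from limma. Trib3, Asns, Sesn2, Psat1, Phgdh and Mthfd2 also had negative values in BaF3-T315I cells and positive ones, not called, in K562 cells. Atf4 was at -1.13 in BaF3-T315I cells. In K562 cells ATF4 was at -0.033, with a 95% interval of -0.77 to 0.70 that gives no direction. The difference between the lines was not tested, since the tables come from different species and were scaled separately.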

How the results depend on the processing

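With 2 libraries a group, only large or very even differences could pass, and FPKM hide the depth of the mouse libraries. In BaF3-T315I cells limma called all 8 genes lower under every other pseudocount, minimum, scaling, variance setting and the replicate block, and 0 to 7 when 1 library was left out. In K562 cells it called 0 of 10 genes, and 0 of the other pathway genes, under every alternative. In the main fit it likewise called 0% of all 15635 K562 genes in each direction, so these counts do not set the genes apart. Shares of all genes called under the alternatives are not given here. The sign of small K562 values turned. ATF4 was at 0.064 with TPM scaling and 0.134 with quantile normalization, and CHAC1 was at 0.049 with TPM scaling. Without 1 library each, log2 fold changes ran from -0.36 to 0.29 for ATF4, -1.74 to 1.69 for CHAC1, -0.52 to 1.53 for TRIB3, -0.59 to 1.29 for SESN2, -0.63 to 1.59 for ATF3, -0.47 to 0.96 for PSAT1, -0.12 to 1.46 for PHGDH and -0.17 to 0.81 for MTHFD2, and the median of the other pathway genes from -0.19 to 0.53. The cause was not tested. The scaling moved the median of all genes, from -0.18 (TPM) to -0.002 (median ratio) in BaF3-T315I cells and from 0.20 to 0.004 in K562 cells. Replicate numbers are not said to pair libraries, and deviations of same-numbered libraries correlated across genes at 0.0121 in BaF3-T315I and 0.188 in K562 cells. With the replicate block, limma called 8 genes lower in BaF3-T315I cells and 0 in K562 cells, where 4 of the 10 (DDIT3, ASNS, PHGDH and MTHFD2) and 15 of 60 other pathway genes had an unadjusted p below 0.05 upwards, and 6 of 60 downwards, against 16.4% and 9.80% of all genes.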

Other observations

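Genes of the other arms of the unfolded protein response, which raises folding capacity in the endoplasmic reticulum, were also read in K562 cells. Of 10 genes, 7 had both JOA libraries above both controls, against 36.8% of all genes, and HERPUD1, XBP1 and SDF2L1 overlapped the controls. limma called 0 of 10, as it did for 0% of all genes. At an unadjusted p under 0.05 in limma 3 were higher, against 11.4% of all genes. The median log2 fold change of the 10 was 0.63, and against the control mean the median was 0.17 in JOA replicate 1 and 1.06 in JOA replicate 2. HSPA5, the chaperone BiP, had 268 and 892 FPKM with JOA and 208 and 267 FPKM in the controls, a log2 fold change of 1.05 (adjusted p = 0.380 from limma). HSP90B1, another chaperone of this compartment, had 214 and 334 FPKM with JOA and 161 and 173 FPKM in the controls. HERPUD1, which takes part in the disposal of misfolded proteins, had 12.6 and 50.05 FPKM with JOA and 9.53 and 16.4 FPKM in the controls, with JOA replicate 1 below control replicate 2.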
